A study of Mus musculus with 8 samples.

Results

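The genes described here are 10 mouse genes of the amino acid response that is run by the transcription factor ATF4: Atf4 itself, Atf5, Asns, Psat1, Phgdh, Chac1, Slc7a11, Slc7a5, Trib3 and Pycr1. They were taken by name from 16362 genes tested on 8 arrays, as a list chosen with earlier results of these data known. The arrays carried 16 probes for them, of which 13 were kept, and each gene is read from its brightest kept probe. Per the files, on build mm8, the Asns probe lies at chr6:7625194-7625253 on the minus strand, that of Chac1 at chr2:119045695-119045754 on the plus strand, that of Psat1 at chr19:15972499-15972558 on the minus strand and that of Atf4 at chr15:80083904-80083963 on the plus strand. Chac1 was found through the transcript identifier of its probe, since the array's own annotation calls it 1810008K03Rik. RNA came from mouse salivary tissue in 5 groups. The first group was 2 arrays of untreated tumours of the salivary glands that AKT had induced. AKT is a kinase that growth factor signals switch on and that acts upstream of mTOR. Tumours treated with rapamycin, an inhibitor of mTOR complex 1, gave 1 array after 3 days and 2 arrays after 14 days. Normal parotid gland gave 2 arrays and normal submandibular gland gave 1 array, all without treatment. The driver of AKT, the strain, the ages of the animals and the rapamycin dose are not given in the sources used here. Nothing in the labels tells separate animals from repeat arrays. Sex-linked signals were opposite within the untreated pair and within the parotid pair, so these were not repeat arrays of the same RNA. P-values measure only the spread between these samples.

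ATF4 is a basic leucine zipper factor whose messenger RNA is translated more when eIF2alpha is phosphorylated, as happens when amino acids run short or unfolded proteins load the endoplasmic reticulum. mTOR complex 1 also raises ATF4 by a route of its own, which acts on the stability and translation of its messenger RNA, and in cultured cells rapamycin is known to lower ATF4 protein and several of its targets. Those targets make amino acids (Asns, Psat1, Phgdh, Pycr1), import them (Slc7a11, Slc7a5) or feed back on the stress response (Atf5, Chac1, Trib3). Salivary acinar cells are secretory cells with a large demand for amino acids and for protein folding. The arrays measure messenger RNA, and ATF4 protein was not measured here.

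ATF4 binds with C/EBP partners to a composite element that contains the letters TGATGNAA, most typically TGATGCAA. Promoter windows of 300 bases (250 before the start and 50 after it) came from RefSeq on GRCm38.p6 and matched 9 of the 10 genes, in 11 windows. Slc7a5 was not matched. On either strand, TGATGNAA was found in 5 of the 11 windows (45.5%) and in 3.97% of all 32851 windows of that length. The narrower TGATGCAA, whose matches are all matches to TGATGNAA too, was found in 3 of the 11 (27.3%) and in 0.895% of all windows. The stretches around the matches upstream of the start are shown because they carry the letters that these genes share, 5′ to 3′ on the strand of the gene, with the matches in capitals.
Asns, chr6:7693210-7693272, minus strand: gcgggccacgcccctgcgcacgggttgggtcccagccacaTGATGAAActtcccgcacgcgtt
Chac1, chr2:119351009-119351096, plus strand: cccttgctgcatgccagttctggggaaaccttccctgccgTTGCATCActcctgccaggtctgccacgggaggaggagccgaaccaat
Pycr1, chr11:120643804-120643891, minus strand: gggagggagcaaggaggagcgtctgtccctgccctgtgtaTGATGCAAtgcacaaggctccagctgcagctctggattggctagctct
Slc7a11, chr3:50443614-50443719, minus strand: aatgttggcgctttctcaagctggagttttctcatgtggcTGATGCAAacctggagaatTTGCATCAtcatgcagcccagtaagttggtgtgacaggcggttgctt
The Asns match begins at base -23, counted back from the start of transcription, the Chac1 match at -193 and the Pycr1 match at -103. Slc7a11 holds both orientations, at -66 and -47, and Trib3 holds TTACATCA inside the transcript at base 15. No match was found in the windows of Atf4, Atf5, Phgdh and Psat1, which says only that these letters are not in them. A match is a description of the sequence and not a measured binding site.

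Levels are given as log2 of the array's processed signal relative to the 75th percentile of all spots on that array, so 0 is that percentile and 1 unit is a doubling. The 75th-percentile signal itself ranged from 145 to 972 between arrays, and it was lowest on parotid replicate 2. It was 966 and 972 on the untreated tumours and 730 at day 3. On the other arrays it was lower, at 177 and 236 at day 14, 384 and 145 in parotid and 277 in the submandibular gland. The scaling value thus differed along with the groups compared. Of the 10 genes, 9 were well above background on all 8 arrays. Slc7a11 was so on 3 of the 8, both parotid arrays and day 14 replicate 2, and it entered the tests only through the parotid group where it was high. Both day 14 arrays carried signal from Xist (-2.10 and -2.40) together with signal from the Y-linked Ddx3y (1.72 and 1.41), while each of the other 6 arrays was well above background for only 1 of these, Ddx3y on untreated replicate 1 and parotid replicate 2 and Xist on the other 4. Acinar cell markers were well above background for 10 of 10 genes on both parotid arrays and on 7 of 10 in the submandibular gland. Granular duct markers were so for 8 of 8 in the submandibular gland and 7 of 8 on each parotid array. In RNA from whole tissue, fewer cells of a type and less RNA per cell cannot be told apart.

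The first comparison asked how these genes differ between tumour and the normal parotid gland. In untreated tumour 7 of the 10 were lower than in parotid and none was higher, with a median log2 difference of -2.21, against 0.02 over all genes tested. Among all genes 39.0% passed the test (adjusted p under 0.05), 20.3% lower and 18.7% higher. Leaving aside Slc7a11, 6 of the 9 genes that were well above background everywhere were lower.

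Among the regulators, Atf4 stood at 1.64 and 1.68 in the untreated tumours and at 2.30 and 3.24 in the parotid glands. Every tumour value lay below every parotid value, and the log2 difference was -1.11 ± 0.33 (SE, adjusted p = 0.0390). Over 18 alternatives the Atf4 difference ran from -1.58 to -0.64, and it passed the test in 11. Atf5, a related factor that ATF4 induces, read 3.24 and 2.66 in tumour and 4.88 and 6.76 in parotid, again without overlap. It was 7.32-fold lower in tumour, a log2 difference of -2.87 ± 0.59 (adjusted p = 0.0118) that became -1.93 without parotid replicate 2 and -3.81 without replicate 1. Trib3, a pseudokinase that restrains ATF4 and AKT, read 1.07 and 0.92 in tumour and 0.66 and 2.36 in parotid. These groups overlapped, and its difference of -0.52 ± 0.52 did not pass the test (adjusted p = 0.463).

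Chac1 degrades glutathione and is among the most inducible targets of ATF4. It read 0.94 and -0.43 in the untreated tumours against 3.78 and 5.87 in the parotid glands. The tumour values were far below both glands, 23.7-fold on average, with a log2 difference of -4.57 ± 0.73 (adjusted p = 0.00478). The parotid glands themselves differed by 2.09 for this gene, less than the gap to the tumours, and the difference was -3.52 without parotid replicate 2 and -5.62 without replicate 1.

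Of the enzymes, those of asparagine and proline synthesis were lower. Asns, which makes asparagine, read 5.24 and 5.24 in tumour and 7.13 and 7.85 in parotid, so that both tumours sat together well below both glands. It was 4.77-fold lower in tumour (log2 difference -2.25 ± 0.31, adjusted p = 0.00275). Pycr1, the mitochondrial enzyme of the last step of proline synthesis, read 0.23 and 0.56 in tumour and 2.35 and 3.05 in parotid. Its log2 difference was -2.31 ± 0.29 (adjusted p = 0.00198), a fold of 4.95, and it had the smallest adjusted p of the 10 genes. Neither serine enzyme was called. Phgdh, which starts serine synthesis, read 6.03 and 6.21 in tumour and 6.61 and 7.56 in parotid, and its difference of -0.96 ± 0.34 missed the threshold (adjusted p = 0.0677). Psat1, which acts after Phgdh, read 3.96 and 4.30 in tumour and 3.54 and 3.69 in parotid. Its tumour values were above both glands, but the difference of 0.51 ± 0.26 did not pass the test either (adjusted p = 0.159).

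Both transporters were lower in tumour. Slc7a5 carries large neutral amino acids such as leucine, and read 1.50 and 1.31 in tumour against 2.64 and 4.51 in parotid. The groups did not overlap and the log2 difference was -2.17 ± 0.57 (adjusted p = 0.0265), which became -1.24 without parotid replicate 2 and -3.10 without replicate 1. Slc7a11 imports cystine, and it was not well above background on either tumour array. It read -2.24 and -2.12 in the parotid glands. With the main scaling this makes it at least 9.09-fold lower in tumour, taking for the tumours the dimmest signal that counts as above background. That bound does not hold for other processing. Over 17 alternatives the log2 difference of Slc7a11 ran from -5.49 to -1.26, and its call was lost with normexp background correction and with quantile normalization. Since the filter kept this gene through the parotid arrays alone, its place among the 7 is a description, and it passed the threshold in 12 of 17 alternatives. The other 3 Slc7a11 probes were dim on all 8 arrays.

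Cell type markers moved with this comparison. Of the acinar markers 10 of 10 were lower in tumour, with a summed log2 signal of 6.23 and 7.004 in tumour against 12.1 and 13.2 in parotid, and of the granular duct markers 6 of 8 were lower. B and plasma cell markers were lower for 4 of 6 genes, T cell and adipocyte markers for 4 of 5 each, and endothelial and fibroblast markers for 3 of 5 each. All 8 proliferation markers were higher in tumour, at 6.80 and 6.85 against 3.06 and 1.81. The part of these markers in the results above was not tested. Leaving out either untreated tumour left fewer than the 7 genes called, Asns, Chac1 and Pycr1 among them. Calls over all genes fell in these fits too. With slide as a fixed block 4 genes passed (Atf5, Asns, Chac1 and Pycr1), and the same 7 passed with slide as a random block. On slide 1 alone these 7 genes were also lower in tumour. That slide holds parotid replicate 1 without replicate 2, so the spread between replicates there comes from the untreated pair alone.

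**Figure D1:**
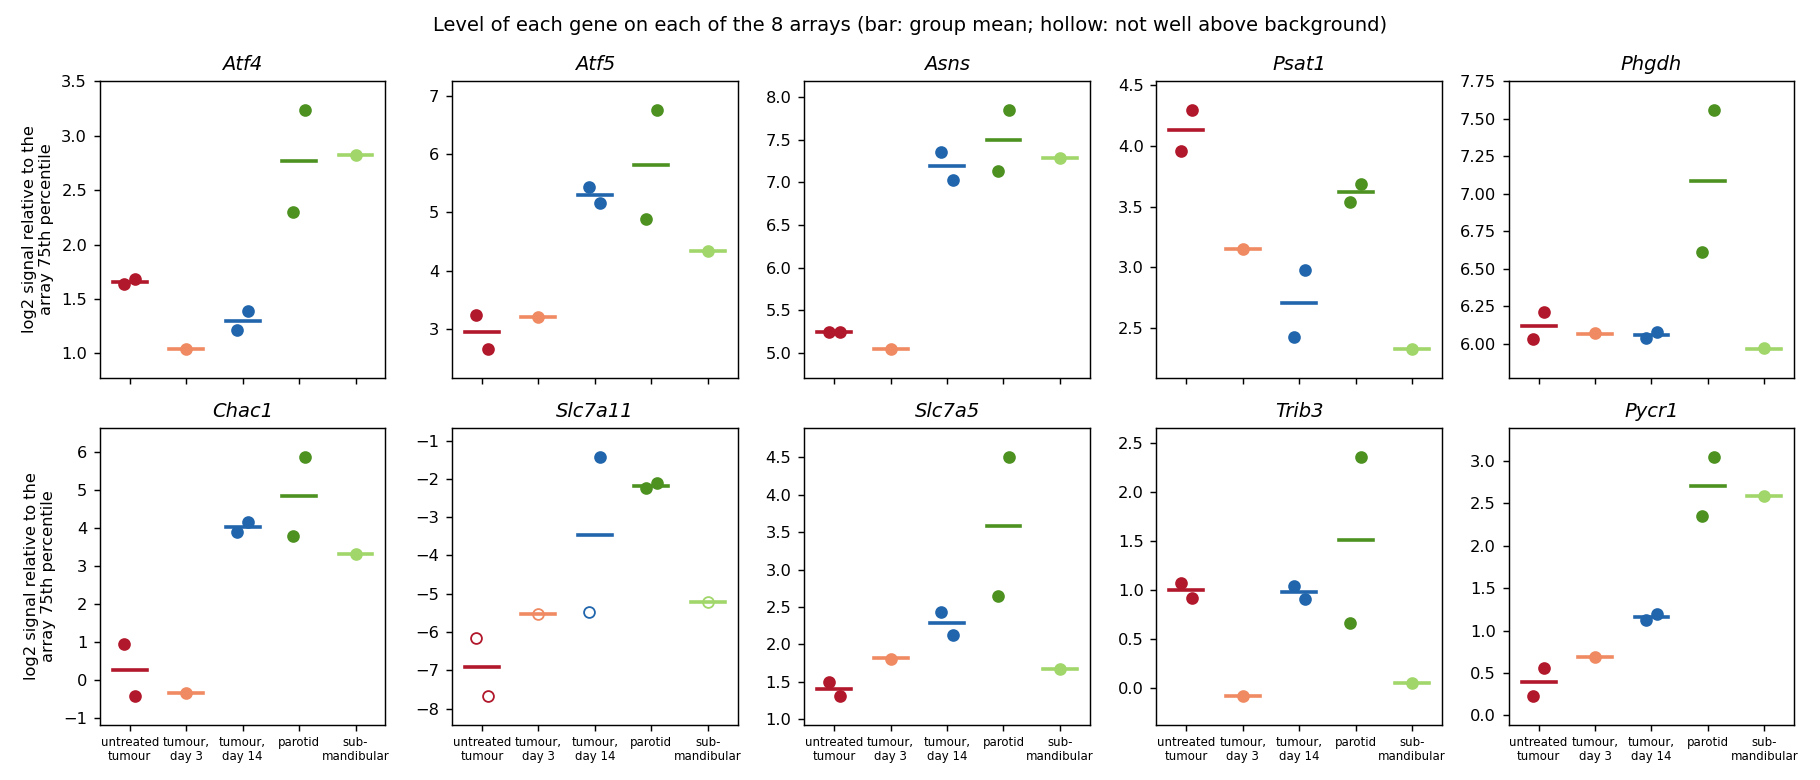
Level of each of the 10 genes on each array, as log2 signal relative to the array's 75th percentile, with a panel and a vertical scale of its own for each gene. Points are arrays, bars are group means, and hollow points were not well above background. Atf5, Asns and Chac1 are low in untreated and day 3 tumour and high at day 14 and in both glands, Psat1 is highest in untreated tumour, and Slc7a11 is hollow on 5 arrays. The gap of Atf5 between untreated tumour and submandibular gland did not pass the test.

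The submandibular gland gave the other normal comparison, with 1 array that was assumed to vary like the replicated groups. Untreated tumour differed from it in 4 of the 10 genes, of which 3 were lower and 1 higher, against 29.4% of all genes tested (15.2% lower and 14.3% higher). Pycr1 read 2.59 in the submandibular gland and was 4.58-fold lower in tumour (log2 difference -2.20 ± 0.35, adjusted p = 0.00659). Asns read 7.29 and was 4.13-fold lower (adjusted p = 0.0105), and Chac1 read 3.30 and was 8.26-fold lower (adjusted p = 0.0471). Psat1 went the other way, at 2.33 in the gland and 3.49-fold higher in tumour (log2 difference 1.80 ± 0.31, adjusted p = 0.00855). Atf4 read 2.82, and its difference of -1.16 ± 0.40 missed the threshold (adjusted p = 0.0744). Atf5 read 4.34, and its difference of -1.39 ± 0.72, with an interval from -3.14 to 0.36, did not pass the test either. Slc7a5 differed by -0.27 ± 0.69 here, with an interval from -1.94 to 1.41 (adjusted p = 0.797). The call for Chac1 was lost in 8 of 17 alternatives, among them slide as a fixed or a random block and the fits without either untreated tumour. Asns missed the threshold with slide as a fixed block (adjusted p = 0.0731) and without either untreated tumour. Leaving out either untreated tumour left fewer of the 10 genes called, Pycr1 among them, and calls over all genes fell in these fits too. Granular duct markers were lower in tumour for 8 of 8 genes and proliferation markers higher for 8 of 8, and their part was not tested. Between the glands themselves none of the 10 genes passed the test, against 2.35% of all genes.

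After 3 days of rapamycin none of the 10 genes had passed the test against untreated tumour, on a single array, and only 1 of the 16362 genes had (0.00611%). At an unadjusted p under 0.05 the counts were 1 of 10 and 1436 of 16362. Levels of Atf4 (1.04), Asns (5.05), Psat1 (3.15) and Trib3 (-0.08) at day 3 lay below both untreated tumours. Those of Slc7a5 (1.81) and Pycr1 (0.69) lay above both. The gene with the unadjusted call was Psat1, at -0.98 ± 0.31 with an interval from -1.74 to -0.22 (adjusted p = 0.449). Atf4 differed by -0.62 ± 0.40, with an interval from -1.58 to 0.35. For Asns the interval of -1.11 to 0.72 leaves out the size of the change measured later at day 14. Chac1 read -0.35 at day 3 and lay between the untreated tumours, and Phgdh (6.07) did too. Against the parotid gland 5 of the 10 genes were lower at day 3 (Atf4, Atf5, Asns, Chac1 and Pycr1), against 20.5% of all genes called and 9.39% lower. The Atf5 call rested on the single day 3 array and lay close to the threshold, at -2.61 ± 0.72 with an interval from -4.36 to -0.87. Against the submandibular gland 3 were lower (Atf4, Asns and Pycr1), against 18.5% called and 8.58% lower, but this sets 1 array against 1, with the spread taken from the other groups. Results under the alternatives are not given for day 3 against either gland. Acinar markers were lower at day 3 than in parotid for 8 of 10 genes, and proliferation markers were higher for 8 of 8. Both untreated tumours were on slide 1 and the day 3 array was on slide 2, and with slide as a fixed or a random block the count of called genes was again 0. Proliferation markers summed to 6.20 at day 3 and acinar markers to 6.68, and none of either list passed the test against untreated tumour. Adipocyte markers summed to 6.46 at day 3, against 4.51 and 3.70, with 5 of 5 at an unadjusted p under 0.05 and none after adjustment. The part of these markers was not tested.

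After 14 days of rapamycin Atf5, Asns and Chac1 had risen above untreated tumour, Psat1 had fallen, and Atf4 itself read slightly lower without passing the test. The calls were 4 of 10 genes, 3 higher and 1 lower, against 47.7% of all genes tested, 24.3% higher and 23.5% lower. The share of called genes among the 10 was thus near that of all genes. The median log2 difference of the 10 was 0.82, against 0.02 over all genes.

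Atf4 read 1.21 and 1.39 at day 14, below both untreated tumours (1.64 and 1.68), with a difference of -0.36 ± 0.33, an interval from -1.15 to 0.43 and an adjusted p of 0.393. Atf5 read 5.43 and 5.17 at day 14, above both untreated tumours. It was 5.09-fold higher, a log2 difference of 2.35 ± 0.59 (adjusted p = 0.0192). Trib3 read 1.04 and 0.91 and sat among the tumour values, with a difference of -0.02 ± 0.52 (adjusted p = 0.978) whose sign turned under several ways of scaling. Its second, dimmer probe read -1.65 and -1.12 at day 14, below -0.55 and -0.36 in untreated tumour, a difference of -0.93.

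Chac1 read 3.88 and 4.16 at day 14, against 0.94 and -0.43 in untreated tumour. This was 13.6-fold higher, a log2 difference of 3.76 ± 0.73 (adjusted p = 0.00787) that was 3.08 without untreated replicate 2 and 4.44 without replicate 1. Asns read 7.36 and 7.03, and both values were close to those of the glands. Its rise of 1.95 ± 0.31 (3.87-fold, adjusted p = 0.00378) passed the test in 18 of 18 alternative analyses. The calls for Atf5 and Chac1 were lost without day 14 replicate 1 or replicate 2, which left Asns and Psat1 called from these 4. Without untreated replicate 2 the calls left were Asns and Chac1. Calls over all genes fell in these fits too.

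Of the serine enzymes, Psat1 fell and Phgdh did not pass the test. Psat1 read 2.43 and 2.98 at day 14, below 3.96 and 4.30 in untreated tumour. It fell by 1.43 on the log2 scale (SE 0.26, 2.69-fold, adjusted p = 0.00599). Phgdh read 6.04 and 6.08, within the range of the untreated tumours, with a difference of -0.06 ± 0.34 and an interval from -0.90 to 0.77. The 3 Phgdh probes disagreed, with differences of -0.06, -0.37 and -1.40 from the brightest to the dimmest, and their mean of -0.61 did not pass the test (adjusted p = 0.113). Pycr1 read 1.12 and 1.19, above both untreated tumours, and its difference of 0.76 ± 0.29 missed the threshold (adjusted p = 0.0710).

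Of the transporters, Slc7a5 read 2.43 and 2.13 at day 14 and lay above both untreated tumours, with a difference of 0.87 ± 0.57 that did not pass the test (adjusted p = 0.242). Slc7a11 was well above background on 1 of 2 day 14 arrays and on no untreated tumour. It read -1.42 on replicate 2, a value above both parotid glands, and -5.49 on replicate 1. No fold is given for it, and the comparison did not pass the test (adjusted p = 0.0684).

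Acinar markers were higher at day 14 than in untreated tumour for 10 of 10 genes (summed log2 signal 12.3 and 12.4), granular duct markers for 8 of 8 (12.5 and 12.4), and skeletal muscle markers for 6 of 6 (9.36 and 9.60, against -1.04 and -0.74 in untreated tumour). All 8 proliferation markers were lower (2.55 and 2.58). B and plasma cell markers were higher for 6 of 6 genes tested, T cell markers for 4 of 5 and adipocyte markers for 5 of 5. Their part in the changes of the 10 genes was not tested.

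**Figure D2:**
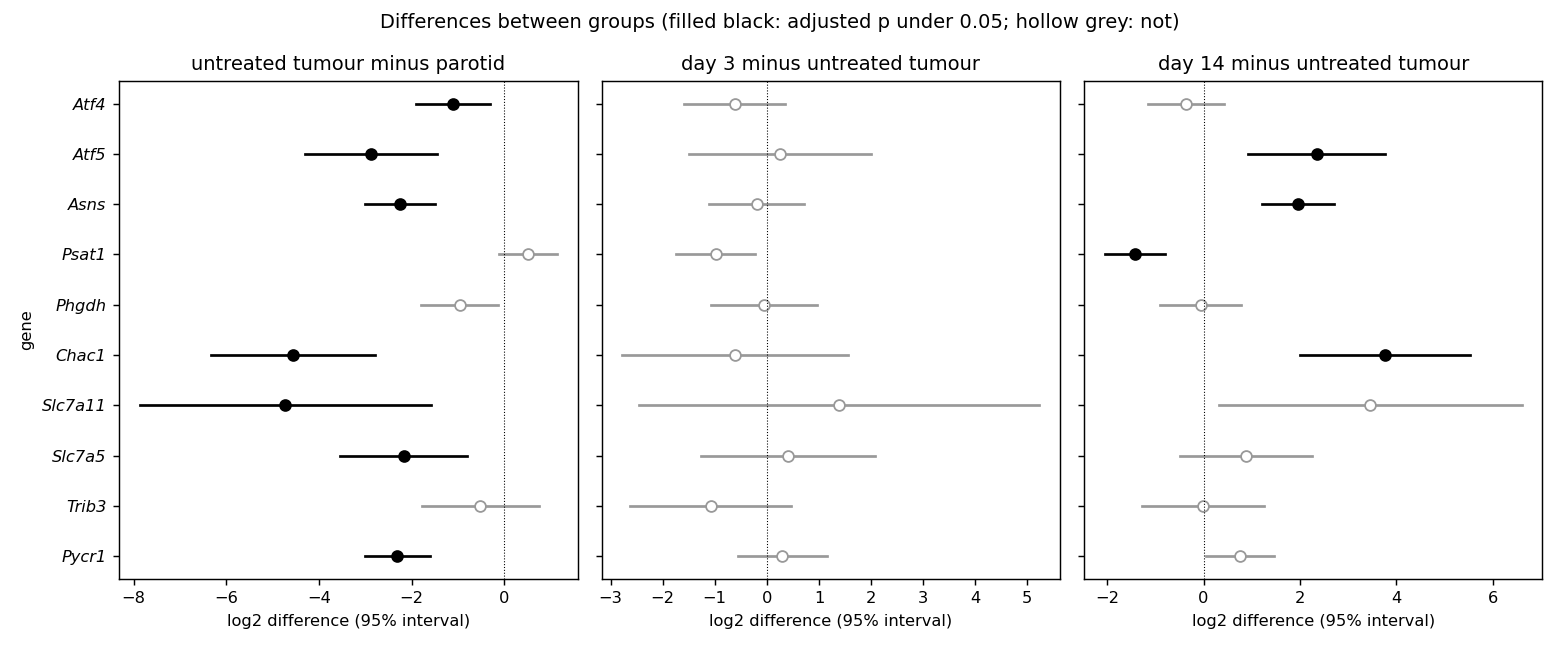
Log2 differences of the 10 genes with 95% intervals from the fit in 3 comparisons, each panel on its own horizontal scale. Filled points have an adjusted p under 0.05: 7 in untreated tumour minus parotid, none at day 3 minus untreated tumour and 4 at day 14 minus untreated tumour. The Slc7a11 points are fitted values that include arrays not above background.

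The change between the days was tested directly. From day 3 to day 14 Asns rose by 2.15 ± 0.38 (adjusted p = 0.0126) and Chac1 by 4.37 ± 0.90 (adjusted p = 0.0199), and these 2 of 10 were the only calls, against 22.8% of all genes and 10.9% higher. Atf5 differed by 2.09 ± 0.72 (adjusted p = 0.0846). Atf4 differed by 0.26 ± 0.40, with an interval from -0.71 to 1.22, and Psat1 by -0.45 ± 0.31 (adjusted p = 0.337). Both calls were lost without either day 14 replicate, and calls over all genes fell in these fits too. In this comparison acinar markers were higher at day 14 for 7 of 10 genes, granular duct markers for 8 of 8 and skeletal muscle markers for 5 of 6, and proliferation markers were lower for 8 of 8, and their part was not tested. On slide 2, which held day 3 and day 14 replicate 2, the differences were 1.98 for Asns and 4.51 for Chac1.

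Day 14 tumour was then set against the normal parotid gland, where 2 of the 10 genes were called, both lower at day 14, against 11.3% of all genes and 5.07% lower. Atf4 was 2.76-fold lower at day 14 than in parotid (log2 difference -1.47 ± 0.33, adjusted p = 0.0407). Pycr1 was 2.92-fold lower (-1.55 ± 0.29, adjusted p = 0.0271). Asns differed by -0.30 ± 0.31 with an interval from -1.05 to 0.45, Atf5 by -0.52 ± 0.59 with an interval from -1.95 to 0.90, and Chac1 by -0.81 ± 0.73 with an interval from -2.58 to 0.96. For these 3 genes the day 14 and parotid values overlapped. Within slide 1 Atf4 remained called and Asns, Atf5 and Chac1 lay above parotid replicate 1, with 1 array on each side, and Pycr1 was no longer called. Against parotid replicate 2 alone, a single array assumed to vary like the other groups, 9 of the 10 genes were lower at day 14, and 36.0% of all genes were called. Leaving out either day 14 array or either untreated tumour lost the calls of Atf4 and Pycr1, and calls over all genes fell in these fits too. Over 18 alternatives Atf4 and Pycr1 stayed lower at day 14, and each passed the test in 12. Against the submandibular gland none of the 10 genes was called at day 14 (8.93% of all genes were). Granular duct markers were higher at day 14 than in parotid for 5 of 8 genes, and their part was not tested.

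The parotid replicates were the most unlike pair for these genes. Replicate 2 read higher than replicate 1 for 10 of 10 genes, by 0.12 (Slc7a11) to 2.09 (Chac1) with a median of 0.95. Over all genes the median gap was 0.21, and 60.4% were higher in replicate 2. Between the untreated tumours replicate 2 was higher for 5 of 10 genes, and between the day 14 tumours for 6 of 10. The untreated tumours agreed to within 0.01 for Asns and 0.04 for Atf4 but differed by 1.37 for Chac1. Muscle markers also differed between the parotid arrays (-0.51 and 6.15), and T cell markers ran the other way (5.80 and 0.18). Of the sex-linked genes, Xist marked replicate 1 and Ddx3y replicate 2. The part of these genes in the gap was not tested.

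Ordered by group mean, the 10 genes gave different sequences, and only 3 of the 40 steps between neighbouring groups passed the test. For Atf4 the order from high to low was submandibular gland, parotid, untreated tumour, day 14 and day 3, with the called step between parotid and untreated tumour. For Asns it was parotid, submandibular gland, day 14, untreated tumour and day 3, with the called step between day 14 and untreated tumour. Chac1 ran parotid, day 14, submandibular gland, untreated tumour and day 3, with the called step below the submandibular gland. Atf5 ran parotid, day 14, submandibular gland, day 3 and untreated tumour, and no neighbours differed beyond their spread. Psat1 alone among the 10 had its highest mean in untreated tumour (4.13 ± 0.24, SD, n = 2), followed by parotid, day 3, day 14 and submandibular gland. Phgdh means of the 4 groups other than parotid lay between 5.97 and 6.12. For Pycr1 the day 14 mean (1.15 ± 0.04, SD, n = 2) lay nearer to untreated tumour (0.39) than to either gland (2.70 and 2.59).

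The other genes of the pathway were taken from lists by function. Their counts are to be read against those of all genes tested. In untreated tumour 39.0% of all genes were called against parotid, 20.3% lower and 18.7% higher. At day 14 the share against untreated tumour was 47.7%, with 24.3% higher and 23.5% lower. Of 12 further stress regulators and ATF4 targets, 5 were lower and 1 higher in untreated tumour than in parotid, and 5 were higher and 3 lower at day 14 than in untreated tumour. Nupr1, a stress-induced chromatin protein, was lower in tumour by -3.09 ± 0.67 and rose at day 14 by 2.39 ± 0.67. Eif4ebp1, which holds back cap-dependent translation until mTOR complex 1 phosphorylates it and is itself an ATF4 target, was lower in tumour (-2.72 ± 0.41, adjusted p = 0.00370) and rose at day 14 (1.71 ± 0.41, adjusted p = 0.0160). Ddit3, which encodes the stress factor CHOP, differed by -1.52 and then 1.30 in the same comparisons, and both passed the test. Vldlr, a lipoprotein receptor, rose at day 14 by 2.24 ± 0.42. Atf3, another factor of this response, was opposite, at 3.41 ± 0.79 higher in tumour (adjusted p = 0.0177) and -3.39 ± 0.79 at day 14 (adjusted p = 0.0147). Between tumour and parotid, leaving out parotid replicate 1 or 2 gave -4.18 or -1.99 for Nupr1, -3.36 or -2.09 for Eif4ebp1 and 2.08 or 4.75 for Atf3. These comparisons share the untreated tumour arrays, so opposite signs in them are not independent of each other.

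A further 13 enzymes act in amino acid and folate metabolism. In tumour 8 of them were lower than in parotid and 2 were higher. At day 14 the counts were 3 higher and 2 lower than in untreated tumour. These 5 calls of 13 were a smaller share than the 47.7% of all genes. The mitochondrial folate enzyme Aldh1l2 read -3.67 and -4.79 in untreated tumour, 0.91 and 1.05 at day 14 and 1.74 and 2.10 in parotid. It was 71.2-fold lower in tumour than in parotid (adjusted p = 0.000299) and 37.2-fold higher at day 14 than in untreated tumour (adjusted p = 0.000466). With normexp background correction these log2 differences shrank from -6.15 to -3.78 and from 5.22 to 2.94, and both still passed the test. Cbs, which begins the conversion of homocysteine to cysteine, differed by -3.89 ± 0.58 between tumour and parotid and only 1 of the 2 tumour arrays was above background for it. Shmt1, the cytosolic serine hydroxymethyltransferase, was higher in tumour by 2.73 ± 0.29 and lower at day 14 by -1.85 ± 0.29, and the mitochondrial Mthfd1l was lower at day 14 by -1.95 ± 0.35. Among these enzymes the direction therefore differed by gene, as it did between Asns and Psat1.

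Another 9 genes transport amino acids. Against parotid 3 were lower in tumour and 1 was higher, and against untreated tumour 4 were higher at day 14 and 1 was lower. Slc6a9, a glycine transporter, differed by -4.73 ± 0.53 in tumour and 4.80 ± 0.53 at day 14 (adjusted p = 0.00130 and 0.00107). Slc1a5, which carries glutamine, differed by -1.97 ± 0.33 and 2.50 ± 0.33. Slc3a2, the heavy chain that Slc7a5 and Slc7a11 pair with, was lower in tumour by -2.15 ± 0.51 (adjusted p = 0.0202), and Slc43a1, another leucine carrier, was higher at day 14 by 1.69 ± 0.39. Of 13 genes for aminoacyl-tRNA synthetases and tRNA export, which ATF4 also induces, none passed the test between tumour and parotid, although 5 had an unadjusted p under 0.05 and 6 were called when scaling used only probes above background on all arrays. At day 14 the called ones went both ways, with Nars (1.24) and Cars (0.99) among 2 higher and Gars (-2.36) the largest of 3 lower.

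Upstream of ATF4, the eIF2alpha list held 7 genes. Of these, 2 were lower and 1 was higher in tumour than in parotid. Again 2 were lower and 1 was higher at day 14 than in untreated tumour. The 3 calls of 7 in each comparison lay near the shares of all genes. Eif2ak3, which encodes the kinase PERK of the endoplasmic reticulum, was lower in tumour (-1.25 ± 0.22) and rose at day 14 (1.18 ± 0.22). Eif2s1, which encodes eIF2alpha, was higher in tumour (1.24 ± 0.19) and fell by 2.17 at day 14, and Eif2ak2, the kinase PKR, fell by 1.54. Ppp1r15b, a subunit of the phosphatase that reverses the mark, was lower in tumour by -1.09 ± 0.22. Eif2ak4, the amino acid sensor GCN2, differed by 0.31 ± 0.45 and 0.04 ± 0.45, did not pass the test and changed sign between alternatives. Of 10 mTOR complex 1 genes, 2 were lower and 1 was higher in tumour than in parotid. At day 14 1 was higher and 1 was lower than in untreated tumour. Both are smaller shares than the 39.0% and 47.7% called among all genes. Mtor did not pass the test in either comparison (0.55 ± 0.26 and -0.31 ± 0.26). Fkbp1a, which encodes the protein that rapamycin binds, was higher in tumour by 2.50 ± 0.30 and fell by 3.50 at day 14. Deptor, an inhibitor of mTOR, was lower in tumour by -2.01 ± 0.30 and rose by 2.09 ± 0.30 at day 14, and the kinase gene Rps6kb1 was lower in tumour by -1.05 ± 0.31 (adjusted p = 0.0396, past the threshold in 8 of 18 alternatives).

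Neighbouring stress pathways were counted in the same way. Of 12 chaperones and partners of the ATF6 and XBP1 arms, 4 were lower in tumour than in parotid and none was higher, and 5 were higher and none lower at day 14 than in untreated tumour, a count that reached 9 with the deposited values. Herpud1, which helps to clear misfolded proteins, differed by -3.51 ± 0.37 and 3.06 ± 0.37, and Dnajc3, an inhibitor of PERK, by -2.11 ± 0.29 and 1.88 ± 0.29. Dnajb9, a co-chaperone of the endoplasmic reticulum, was lower in tumour by -2.20 ± 0.42, and Creld2, a resident of the same compartment, was higher at day 14 by 1.69 ± 0.48. Of 8 targets of NRF2, the oxidative stress factor that also drives Slc7a11, 3 were higher and none lower in tumour, and 4 were lower and none higher at day 14. Hmox1, which degrades haem, was higher in tumour by 2.60 ± 0.42 and fell by 3.14 at day 14. The thioredoxin reductase Txnrd1 differed by 1.79 ± 0.26 and -1.25 ± 0.26, and Gclm, a subunit of the enzyme that starts glutathione synthesis, was at least 2.65-fold higher in untreated tumour than in parotid, a call that was lost with normexp.

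**Figure D3:**
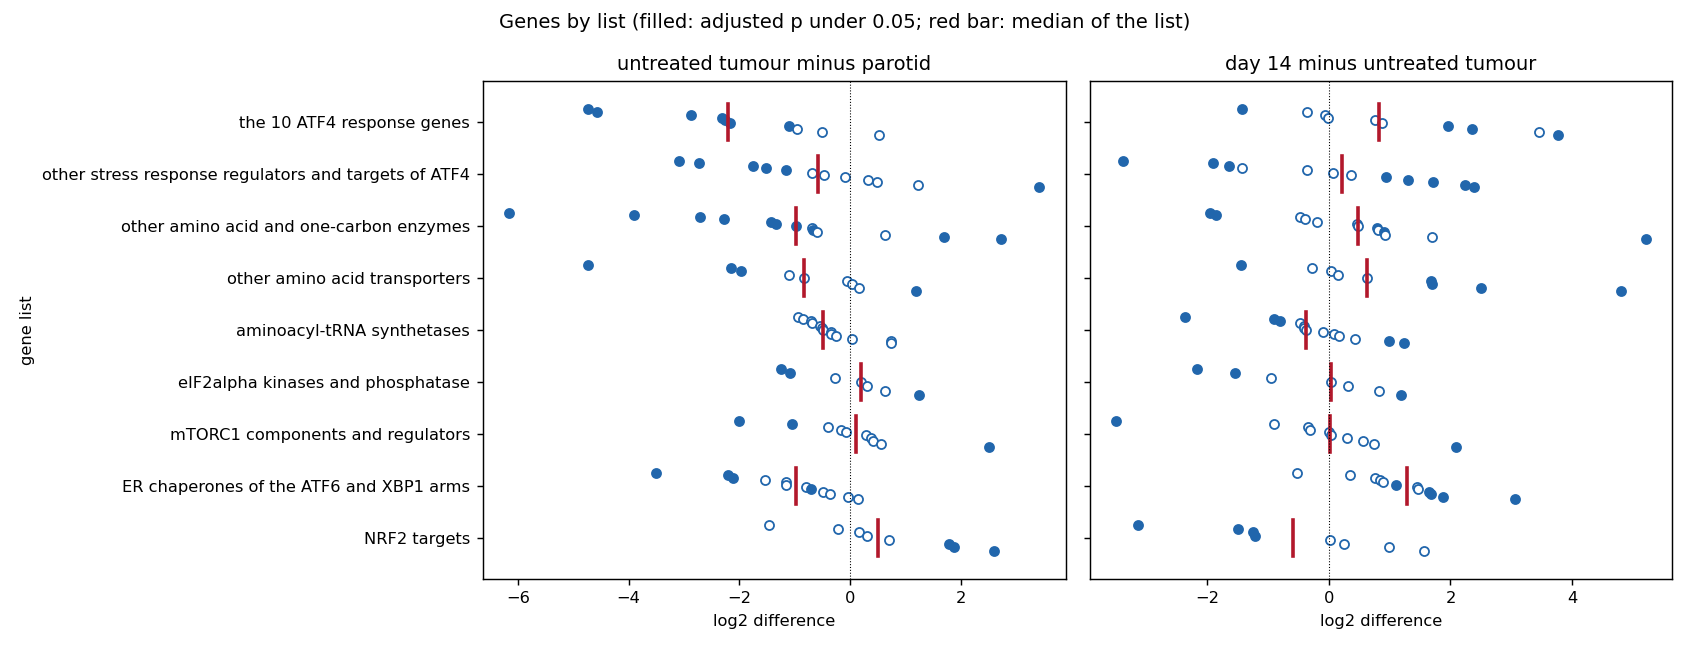
Log2 difference of each gene of 9 lists between untreated tumour and parotid (left) and between day 14 and untreated tumour (right), which share the untreated tumour arrays. Filled points have an adjusted p under 0.05 and the red bar is the median of the list. The 10 ATF4 response genes have medians of -2.21 and 0.82, and the NRF2 targets have medians of the opposite signs, 0.50 and -0.60.

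**Figure D4:**
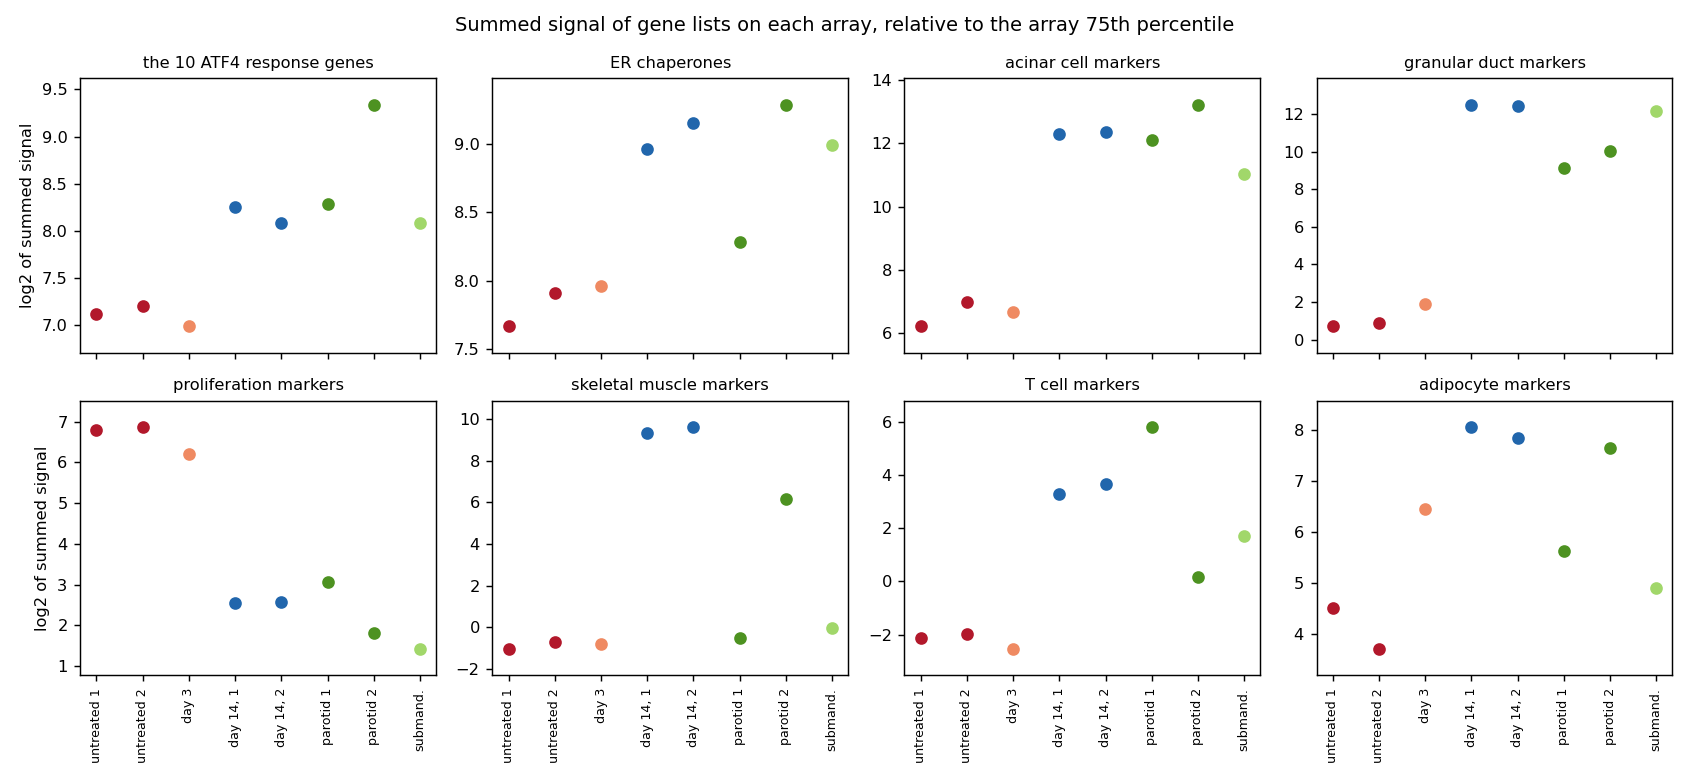
Log2 of the summed signal of 8 gene lists on each array, relative to the array's 75th percentile, with a vertical scale for each panel. The 10 ATF4 response genes sum to 6.99 to 7.21 in untreated and day 3 tumour and to 8.08 to 9.34 on the other 5 arrays. Signals were summed before taking log2, so the brightest genes, Asns and Phgdh, weigh most and the sum does not show each of the 10. Acinar and granular duct markers are low on the same 3 arrays, where proliferation markers are high.

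Genes with clone-type names, such as those ending in Rik, were passed over in what follows. Of the rest, the gene most like the mean pattern of the 10 over the 8 arrays was Clcn5, a chloride-proton exchanger. Its Pearson correlation was 0.993. Next were Tcf25, Cox16, Edrf1 and Thnsl2 (0.985 to 0.970). The genes compared were 11054 that were well above background on all arrays, a number that includes the clone-type names. These 5 were highest on parotid replicate 2, as the mean of the 10 genes was. Within the 10, Asns correlated at 0.966 with Chac1, 0.919 with Atf5 and -0.51 with Psat1 over the 8 arrays. Atf4 correlated at 0.873 with Pycr1 and 0.06 with Psat1. These are descriptions over 8 arrays in 5 groups, which share 2 slides and the scaling of each array.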

How the data were processed

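RNA of 8 mouse salivary samples was hybridised to 1-colour Agilent whole genome arrays. Per the file headers, Feature Extraction 10.7.3.1 gave background-subtracted, spatially detrended intensities, which the authors deposited without scaling between arrays. The log2 values that the authors deposited as a table have medians of 5.52 to 5.57 and correlate at 0.971 to 0.980 with the scanner values. Their normalization is not given in the sources used here, and they served as an alternative.

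Outlier spots and controls were left out. A probe had to be well above background on all arrays of some group, and the brightest probe stood for a gene. Names came from the files' transcript identifiers through RefSeq (23374 probes), from symbols (6733) or synonyms (2919), and 8148 probes kept the file's name. Log2 processed signal minus the array's 75th percentile entered limma (3.58.1, under R 4.3.3) as 8 arrays with 5 group means, an intensity trend and 3 residual degrees of freedom. The groups of 1 array were assumed to vary like the others. P-values are two-sided and adjusted by the Benjamini-Hochberg method over all 16362 genes tested. The threshold was 0.05, and intervals are 95%. The fit was tested on simulated data. Where no array of a group was above background, a fold is a bound against the dimmest signal above background. The number of arrays limits the precision.

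The members and lists were chosen with earlier results of these data known. Named were all 10 members and, per list, up to 3 called genes with the largest difference between untreated tumour and parotid and up to 3 between day 14 and untreated tumour. Fkbp1a, Mtor, Eif4ebp1, Ddit3 and Eif2ak4 were always given, with the 5 genes most alike. The marker lists are described by counts and sums. Alternatives were normexp background correction (offset 50), quantile normalization, the deposited values, 2 other filters, averaging all probes of each gene, a fit without the trend, the slide as a block (fixed, then random), the arrays of slide 1, the compared groups by themselves, leaving out each replicate, and, added after seeing the data, scaling on probes above background on all arrays.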

Additional observations from a re-analysis of the deposited data

How the results depend on the processing

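No paired analysis was possible because the titles of the groups share only the number 2, the other parotid and day 14 arrays being unnumbered. Slide as a fixed block, under which day 14 and parotid have an array each on both slides, left their count at 2. Over up to 18 alternatives no called difference of the 10 genes changed sign; 906 single values kept their side of the threshold, 53 lost a call and 50 gained one. Counts of called genes moved under these settings. With slide as a fixed block 4 of 10 were called for untreated tumour against parotid and 2 against submandibular gland. With only the compared groups 7 were called against submandibular gland, 5 for day 14 against day 3 and 0 for day 14 against parotid, where 1 was called without the intensity trend and 1 on slide 1 alone. Leaving out each replicate gave 3 to 9 for untreated tumour against parotid, 1 to 7 against submandibular gland, 2 to 6 for day 14 against untreated tumour, 0 to 4 for day 14 against day 3, 0 to 9 for day 14 against parotid and 0 throughout for day 3. The highest of these counts came from leaving out a parotid array; the cause was not tested. Groups left with 1 array were assumed to vary like the others. Over all genes the share called ran from 18.5% to 56.7% for untreated tumour against parotid and from 22.8% to 64.6% for day 14 against untreated tumour; without a filter on dim probes 22.3% and 75.5% of the calls were higher, against 47.9% and 50.9%.

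Of the other genes, 4 had a fold between untreated tumour and parotid that moved by over 1.5 times without parotid replicate 1 or 2. The log2 differences were 2.00 or 3.21 for Hmox1, -2.82 or -1.59 for Dnajb9, -2.99 or -1.30 for Slc3a2 and -5.57 or -3.89 for Slc6a9. Normexp ended the calls of Cbs (-1.47) and Gclm (0.33, and -0.27 at day 14).

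The differences that turned sign had not passed the test, and the cause was not tested. For untreated tumour against parotid, Trib3 was 0.33 on slide 1 alone and ran from -1.36 to 0.33 over the left-out replicates. Against submandibular gland, Slc7a11 was 0.39 with quantile normalization, 0.91 with the deposited values and 0.39 with slide fixed, where Slc7a5 was 0.52. For day 3 against untreated tumour, Slc7a11 was -0.33 with normexp, and with slide fixed Slc7a11 was -0.71, Atf5 -0.55, Slc7a5 -0.38 and Pycr1 -0.084; over the left-out replicates Atf5 ran from -0.036 to 0.55, Phgdh from -0.14 to 0.033 and Chac1 from -1.29 to 0.079. For day 14 against untreated tumour, Trib3 was 0.031 with quantile normalization, 0.028 with the deposited values and 0.041 on slide 1 alone; with the added scaling Trib3 was 0.10 and Phgdh 0.058, and over the left-out replicates they ran from -0.093 to 0.053 and from -0.15 to 0.025. For day 14 against day 3, Phgdh was 0.24 with slide fixed, 0.022 with slide random and 0.062 with the added scaling, and ran from -0.025 to 0.0090. For day 14 against parotid on slide 1 alone, Atf5 was 0.55, Asns 0.23, Chac1 0.10 and Trib3 0.37; over the left-out replicates Atf5 ran from -1.46 to 0.42, Asns from -0.66 to 0.061, Chac1 from -1.85 to 0.24, Trib3 from -1.38 to 0.31 and Slc7a11 from -3.31 to 0.77. Eif2ak4 was -0.0070 with averaged probes and -0.30 on slide 1 alone for untreated tumour against parotid, and -0.0049, -0.021 and -0.0079 with quantile normalization, the deposited values and slide 1 alone for day 14; it ran from -0.30 to 0.92 and from -0.12 to 0.20 over the left-out replicates.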
